A study of Mus musculus with 7 samples.

Results

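The genes described here encode the silencing machinery that works with KAP1, the protein of the gene Trim28, and its neighbours in heterochromatin. The list names 35 mouse genes, taken by symbol and chosen with earlier results of these data known. It holds the TIF1 family, KRAB zinc finger genes, SUMO2, the H3K9 methyltransferases, HP1 and the NuRD complex with the remodeller SMARCAD1. It also holds the HUSH complex with MORC2, DNA methylation, and the Polycomb complex PRC2. All 35 matched a GENCODE gene, and 21 of them have a line in the authors' deposited table, which holds 3389 genes. The other 14 are not listed. Such a gene either missed the authors' threshold or was given no adjusted p, which cannot be told from the table.

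The cells were neural stem cells grown from the mouse subventricular zone, a wall of the lateral ventricle where neurons are still made in the grown animal, and were kept in medium containing EGF and FGF-2. Hairpin RNA was delivered by nucleofection, which brings DNA into cells by an electric pulse. Total RNA was extracted, and strand-specific libraries were made from its polyadenylated fraction, 4 from shKAP1 cells and 3 from control cells. The labels give no strain, age, sex or hairpin sequence, do not describe what the control cells received, and do not state whether the samples are separate cultures or animals, so p-values cover the spread between these samples only. Library names number the controls 1, 2 and 4 while titles number them 1 to 3, and whether a further control library entered the authors' fit, on which every SE and p rests, is not given in the sources used here.

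KRAB zinc finger proteins bind DNA sequences, many of them in transposable elements and imprinted regions, and hold KAP1 there. KAP1, modified by SUMO, brings in the NuRD remodelling complex and the methyltransferase SETDB1, which methylates histone H3 at lysine 9 (H3K9). HP1 proteins read that mark, and DNA methylation and, on other genes, the PRC2 mark on lysine 27 of histone H3 (H3K27) act as further layers of silencing.

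The values are the authors' DESeq2 results, with no column per sample. Each listed gene has a mean normalized count over samples, the log2 of its fold change, the standard error (SE) of that, and an adjusted p under 0.05. Library depth and the values of single libraries are unknown, so the SE stands for the replicate error. The sign was read from Trim28: no numerator is named, and the targeted gene is negative, so negative was taken as lower in shKAP1. Intervals of 95% were computed from the fold change and SE with a normal approximation.

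Genes of the silencing machinery were mostly lower in shKAP1, and by small amounts. Of the 35 genes, 20 were lower, 1 was higher and 14 were not listed. Over all 12905 genes that received an adjusted p, 13.7% were listed as lower and 12.6% as higher, against 57.1% and 2.86% of the 35. The 35 were chosen with earlier results of these data known, and the difference between these shares was not tested. Without Trim28, the targeted gene, 19 of 34 were lower. The 19 stood at log2 fold changes of -0.54 to -0.11 in the authors' deposited table, which is 68.8% to 92.8% of the control level, with a median of -0.22. The median over all listed genes that were lower was -0.28, and 4 of the 19 were further from 0 than that. The listed members had a median mean normalized count of 7967, against 2885 over all listed genes, and highly counted genes pass the threshold with smaller changes. Under stricter calls, 15 of the 35 were lower at an adjusted p under 0.01, against 9.51% of all genes tested, and 6 at a Bonferroni limit, against 4.15%. With an interval wholly beyond 1.2-fold there were 2, Trim28 and Ezh2, against 2.48%, and with a change of at least 2-fold there was Trim28 alone, against 0.287%. Trim28 is the targeted gene, set the sign, and is in each of these stricter counts. Without it, Ezh2 alone was left at the 1.2-fold call and no member at the 2-fold call.

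**Figure D1:**
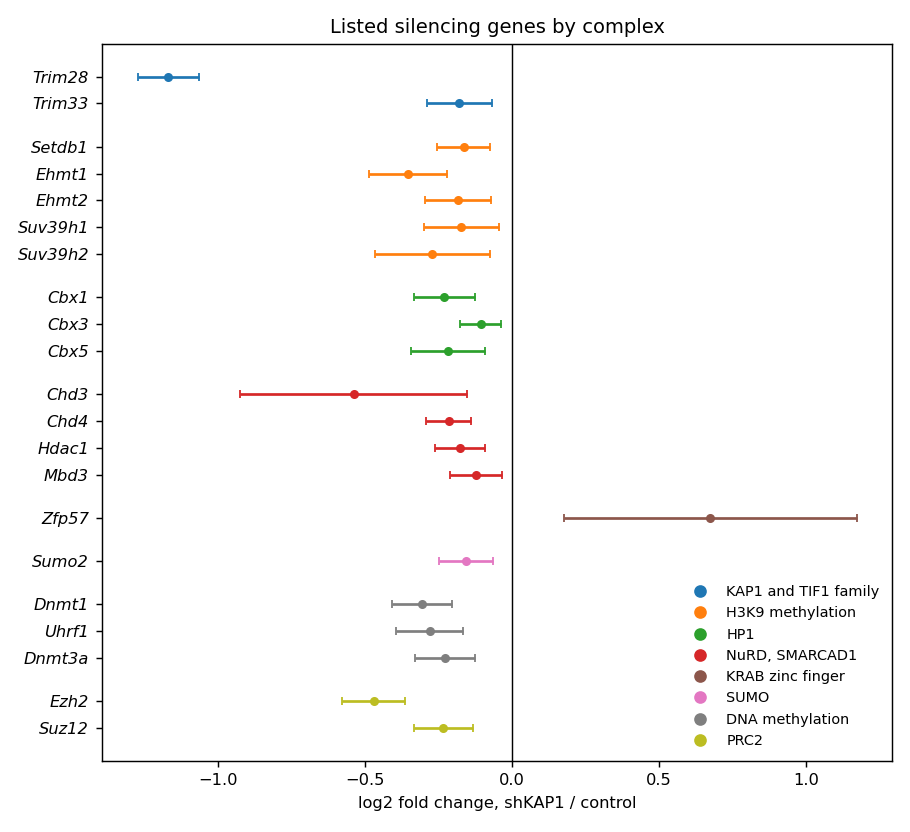
Log2 fold change of shKAP1 over control for the 21 listed silencing genes, grouped and coloured by complex; points are the authors' deposited values and bars their 95% intervals, computed from the SE. Trim28 at -1.17 stands apart, 19 genes lie between -0.54 and -0.11, and Zfp57 at 0.67 is the one gene to the right of 0.

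Cells with less Trim28 also had lower proliferation markers. All 10 genes of a short marker list (Mki67, Top2a, Pcna, Mcm2, Mcm6, Ccnb1, Cdk1, Aurkb, Plk1 and Birc5) were lower, at log2 fold changes of -0.55 to -0.26 in the authors' deposited table. The share lower over all genes tested was 13.7%. Several silencing genes, among them Dnmt1, Uhrf1 and Ezh2, are known to be more highly expressed in dividing cells, and the part of proliferation in their fall was not tested. Leaving out Dnmt1, Uhrf1, Ezh2, Suv39h1, Cbx1, Cbx5 and Hdac2, picked as genes that act at replicating DNA or follow the cell cycle, left 14 lower genes and 1 higher gene. Of these, Hdac2 was not listed and so could not alter the count, and Trim28 stayed among the 14. The pick was made by hand, so this count does not show what part proliferation had in the remaining genes. As these are bulk libraries, fewer cells of a type and less RNA per cell cannot be told apart. Of the neural stem cell markers, Nes, Vim, Fabp7 and Slc1a3 were listed, all higher (0.19 to 0.48 in the authors' deposited table), while others, among them Sox2, Pax6, Gfap, Egfr and Prom1, were not listed. None of 6 microglial, 6 endothelial or 5 oligodendrocyte markers was listed, and of 5 neuronal markers Dcx at -0.62 and Map2 at -0.11 were lower in the authors' deposited table. The table holds no level for a gene that is not listed, so the absence of other cell types could not be checked from it.

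The 3 promoters shown here belong to Suz12, a lower gene of PRC2 and 1 of the 2 lower members with an E2F-type match, Cbx5, a lower HP1 gene that lies head to head with another lower gene, and Zfp57, the higher gene. Each is the stretch of 250 bases that ends just before a transcription start in RefSeq (GRCm38.p6), chosen as the window nearest to the gene's outermost start in GENCODE. Capitals mark exact matches on either strand to a CCAAT box (CCAAT), a GC box (GGGCGG) or an E2F-type motif (TTTCCCGC, TTTCGCGC, TTTGCCGC or TTTGGCGC), and none of these motifs contains another. The Suz12 window is chr11:79992856-79993105, plus strand, the Cbx5 window is chr15:103239853-103240102, minus strand, and the Zfp57 window is chr17:37000913-37001162, plus strand. None of the 3 windows overlaps an exon annotated in GENCODE. The window of Ezh2, the PRC2 gene with the larger fall, does overlap exons of Ezh2 and is not printed; it holds 3 CCAAT boxes, no GC box and no E2F-type match.
Suz12: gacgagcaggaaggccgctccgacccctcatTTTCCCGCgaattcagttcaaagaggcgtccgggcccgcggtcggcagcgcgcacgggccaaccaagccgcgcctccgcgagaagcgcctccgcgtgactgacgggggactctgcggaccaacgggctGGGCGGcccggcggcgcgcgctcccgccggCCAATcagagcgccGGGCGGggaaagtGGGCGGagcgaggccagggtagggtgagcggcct
Cbx5: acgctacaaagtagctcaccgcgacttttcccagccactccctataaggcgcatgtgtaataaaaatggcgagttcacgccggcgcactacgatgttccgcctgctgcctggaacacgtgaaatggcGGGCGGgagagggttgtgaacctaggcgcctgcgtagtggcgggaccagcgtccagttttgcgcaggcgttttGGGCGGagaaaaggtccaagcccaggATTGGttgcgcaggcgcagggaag
Zfp57: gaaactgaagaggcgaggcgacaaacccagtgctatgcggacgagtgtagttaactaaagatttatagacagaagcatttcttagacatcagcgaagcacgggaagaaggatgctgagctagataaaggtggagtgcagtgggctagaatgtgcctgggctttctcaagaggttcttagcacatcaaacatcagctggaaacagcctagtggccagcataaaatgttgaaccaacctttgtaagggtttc

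The Suz12 window holds 1 E2F-type match, 1 CCAAT box and 3 GC boxes, the Cbx5 window 1 CCAAT box and 2 GC boxes, and the Zfp57 window holds none of the 3 motifs. CG dinucleotides numbered 37 in the Suz12 window, 22 in the Cbx5 window and 6 in the Zfp57 window, against a median of 6 over all 32851 windows of this length. RefSeq windows were found for 29 of the 35 genes, 17 of them lower, 1 higher and 11 not listed. The windows of the lower members had a median GC content of 62.0% and a median of 18 CG dinucleotides, against 52.4% and 6 over all windows, and GC-rich motifs are met more often in GC-rich sequence. Windows of the members not listed held from 11 (Zfp809) to 46 (Pphln1) CG dinucleotides, all above that median of 6. Windows rich in CG were thus not particular to the lower members. A GC box was present in 15 of the 17 lower genes and 7 of the 11 not listed, against 32.7% of all windows. A CCAAT box was present in 9 of the 17 and 6 of the 11, against 33.8% of all windows. The E2F-type letters occurred in 2 of the 17, Suz12 and Cbx3, and in none of the 11, against 1.86% of all windows. These are matches of letters, and no binding was measured.

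The only rise among the members was in a single recruiter gene of KAP1. Zfp57, a KRAB zinc finger protein that protects imprinted DNA methylation, was higher by 0.67 on the log2 scale (SE 0.25, DESeq2 adjusted p = 0.0336) at a mean normalized count of 249.0 in the authors' deposited table. Its interval of 113% to 225% of the control level is the widest of the listed members on that scale. Zfp57 has the lowest mean count of the 21, and at its SE a change under 0.63 on the log2 scale could not have been listed. Zfp809, which silences proviruses through their primer binding site, and Zfp568, which represses a placental promoter of Igf2, were not listed. A further 20 KRAB zinc finger genes, among them Zfp932, Zfp708 and Zfp445, were not listed either, so Zfp57 was the 1 listed gene of 23. Over all genes tested, 12.6% were listed as higher and 13.7% as lower. Direction for this class therefore rests on a single low-count gene.

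Of the TIF1 family, whose members share B-box, PHD and bromodomain modules, Trim28 and Trim33 were lower. In the authors' deposited table Trim28 was at -1.17 (SE 0.05), with an interval of -1.27 to -1.06, and was first of 3389 by p. By size it ranked only 22nd among the 1768 lower genes. Trim33, which encodes TIF1 gamma, a regulator of SMAD signalling, was lower at -0.18 (SE 0.06, DESeq2 adjusted p = 0.00823) in the authors' deposited table. The intervals of Trim28 and Trim33 do not overlap. Trim24, encoding TIF1 alpha, was not listed, and Trim66, the fourth family gene, was higher at 0.43 (SE 0.13, DESeq2 adjusted p = 0.00622) in the authors' deposited table, so the family did not move as a block. None of the 7 other protein-coding genes within 50 kb of the GENCODE ends of Trim28 on chromosome 7 (Zfp324, Zfp446, Slc27a5, Zbtb45, Chmp2a, Ube2m and Mzf1) was listed. Of the 12905 genes tested, 9516 were not listed either, and whether these 7 were tested is unknown.

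Listed SUMO genes were mostly lower. SUMO2 is the modifier that KAP1 attaches to its own bromodomain, which then docks SETDB1. Sumo2 was at -0.16 (SE 0.05, DESeq2 adjusted p = 0.00484) in the authors' deposited table. Of 16 further genes of the pathway, 5 were lower (31.3%), 1 was higher (6.25%) and 10 were not listed, against 13.7% lower and 12.6% higher over all genes tested. Uba2 at -0.36 (SE 0.05, DESeq2 adjusted p = 7.30e-13) and Sae1 at -0.23 (SE 0.04), the 2 subunits of the activating enzyme, were both lower in the authors' deposited table. The authors' deposited table also gives lower values for Sumo3, at -0.26, and the ligase gene Pias2, at -0.16. Among proteases that remove or trim SUMO, Senp7 was at -0.33 (SE 0.10) and Senp2 at 0.19 (SE 0.06) by the authors' deposited table, in opposite directions. Of the 31-base words in the Sumo2 transcripts, 21.3% also occur in other genes, mostly the processed pseudogene Gm10241, so its count may hold reads of such copies.

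In the group of H3K9 methyltransferase genes, counted with the partner gene Atf7ip, 5 of 6 were lower, against 13.7% of all genes tested. Further H3K9 genes given below, among them Setdb2 and Prdm2, lie outside this group and were not listed. Atf7ip, the partner that keeps SETDB1 in the nucleus, was not listed. Setdb1, the enzyme KAP1 recruits, was at -0.16 (SE 0.05, DESeq2 adjusted p = 0.00274) in the authors' deposited table. This is 89.2% of the control level, with a log2 interval of -0.25 to -0.07 that does not overlap that of Trim28. Ehmt1, encoding GLP, was the lowest of the 5 at -0.35 (SE 0.07, DESeq2 adjusted p = 3.74e-06) in the authors' deposited table. Its partner Ehmt2, encoding G9a, which forms a heterodimer with GLP that methylates H3K9 in euchromatin, was at -0.18 (SE 0.06) in the authors' deposited table. The intervals of this pair overlap, and the difference within it was not tested. The enzymes of pericentromeric heterochromatin, Suv39h1 at -0.17 (SE 0.07, DESeq2 adjusted p = 0.0340) and Suv39h2 at -0.27 (SE 0.10, DESeq2 adjusted p = 0.0295), were the weakest calls of the 5 in the authors' deposited table, and their intervals overlap too. Suv39h1 has the largest adjusted p of the 21 listed members. Of the Setdb1 31-base words, 10.1% occur in other genes, chiefly the annotated RNA Gm4349.

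None of 9 further H3K9 factors was listed, and neither were 9516 of the 12905 genes tested. Setdb2, Wiz, Zfp644, Cdyl, Atf7ip2, Resf1, Prdm2, Mecom and Prdm16 were all not listed. Of 10 H3K9 demethylase genes, 4 were lower, against 13.7% of all genes tested, 6 were not listed and none was higher. Kdm7a was at -0.39 (SE 0.07, DESeq2 adjusted p = 2.44e-07), Kdm4b at -0.55 (SE 0.18, DESeq2 adjusted p = 0.0127), Kdm3b at -0.14 and Phf2 at -0.12 in the authors' deposited table. The lower genes thus include enzymes that place H3K9 methylation and enzymes that remove it.

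All 3 HP1 genes were lower, against 13.7% of all genes tested. HP1 proteins bind methylated H3K9 through a chromodomain and bind KAP1 through a chromoshadow domain. Cbx1, encoding HP1 beta, was at -0.23 (SE 0.05, DESeq2 adjusted p = 2.00e-04), and Cbx5, encoding HP1 alpha, at -0.22 (SE 0.06, DESeq2 adjusted p = 0.00458), in the authors' deposited table. Cbx3, encoding HP1 gamma, which is also found on active genes, was at -0.11 (SE 0.04, DESeq2 adjusted p = 0.0159) in the authors' deposited table, the smallest change of the 20 lower members. Each pair of the 3 intervals overlaps. Cbx3 shares 8.23% of its 31-base words with other genes, nearly all with the processed pseudogene Cbx3-ps6.

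Cbx3 and Cbx5 each lie head to head with an hnRNP gene. The start of Cbx3 is 466 bases from that of Hnrnpa2b1, and the start of Cbx5 is 616 bases from that of Hnrnpa1, whose products bind and splice RNA. Hnrnpa2b1 was lower at -0.21 (SE 0.04, DESeq2 adjusted p = 1.73e-05) and Hnrnpa1 at -0.39 (SE 0.07, DESeq2 adjusted p = 1.61e-07) in the authors' deposited table. Both partners of both pairs were therefore lower. Of the 4 lower members with a protein-coding gene starting on the other strand within 1000 bases, these were the 2 whose neighbour was listed. Slc27a5 beside Trim28 and C2 beside Ehmt2 were not listed. Among all genes tested 13.7% were lower, and 4 pairs are too few to set against that share. Joint control of the paired genes was not tested. Distances run from the outermost GENCODE start, and for Trim28 that start lies 25038 bases from the nearest RefSeq start, so its pairing with Slc27a5 holds for the GENCODE start only. Among members not listed, Morc2a lies 482 bases from the start of the noncoding RNA gene Tug1, which was lower at -0.31 (SE 0.05, DESeq2 adjusted p = 8.98e-10) in the authors' deposited table. Zcrb1, a protein-coding gene that starts 16 bases from Pphln1, was not listed. Neither were Gm4032 beside Mphosph8, Dnmt3bos beside Dnmt3b and E230029C05Rik beside Eed, which are not protein-coding. These neighbours were looked up after the members' values were known.

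NuRD couples nucleosome remodelling to histone deacetylation and binds the PHD and bromodomain of KAP1. Of the 7 genes for NuRD and SMARCAD1, 4 were lower and 3 were not listed, against 13.7% lower over all genes tested. Chd4, its main ATPase in neural progenitors, was at -0.22 (SE 0.04, DESeq2 adjusted p = 1.12e-06) in the authors' deposited table. Chd3, the alternative ATPase, was at -0.54 (SE 0.20, DESeq2 adjusted p = 0.0278) in the authors' deposited table. This is the largest change among the 19 and the one with the largest SE, so its interval of 52.7% to 90.0% of control overlaps that of Chd4. Hdac1, a deacetylase, was at -0.18 (SE 0.04, DESeq2 adjusted p = 5.65e-04) in the authors' deposited table, and its paralog Hdac2 was not listed. Of the Hdac1 31-base words, 40.0% occur in other genes, mostly the processed pseudogene Gm10093, which makes its count uncertain, whereas Hdac2 shares none. Mbd3, the subunit of NuRD that does not need methylated DNA, was at -0.12 (SE 0.04, DESeq2 adjusted p = 0.0261) in the authors' deposited table, and Mbd2, which reads methylated DNA in its place, was not listed. Smarcad1, a remodeller that binds KAP1 and keeps heterochromatin through replication, was not listed.

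Of 9 further NuRD subunits, 3 were lower (33.3%), 1 was higher (11.1%) and 5 were not listed, against 13.7% lower and 12.6% higher over all genes tested. The histone-binding subunits Rbbp7 at -0.24 (SE 0.04, DESeq2 adjusted p = 2.35e-08) and Rbbp4 at -0.17 (SE 0.04), and Cdk2ap1 at -0.23 (SE 0.06), were the lower ones by the authors' deposited table. Chd5, the ATPase typical of neurons, was higher at 0.63 (SE 0.21, DESeq2 adjusted p = 0.0139), at a mean normalized count of 515.9, in the authors' deposited table. The ATPase genes thus split, with Chd3 and Chd4 lower and Chd5 higher. None of Mta1, Mta2, Mta3, Gatad2a and Gatad2b was listed. Of 12 other deacetylase and corepressor genes, Hdac3 at -0.23 and Sap30 at -0.18 were lower and Sin3b at 0.19 higher in the authors' deposited table. These 2 of 12 lower (16.7%) and 1 of 12 higher (8.33%) are near the shares over all genes tested, 13.7% and 12.6%.

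No gene of the HUSH complex was listed, and neither were 9516 of the 12905 genes tested. Over all genes tested, 13.7% were listed as lower and 12.6% as higher. HUSH spreads H3K9 methylation over young retroelements and intronless transgenes by way of SETDB1 and MORC2. Its genes Mphosph8, Fam208a (encoding TASOR) and Pphln1 and the partner gene Morc2a are 4 in number and their counts are unknown, so this does not show that they were unchanged. Whether the share listed in HUSH differs from that of the other complexes was not tested.

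**Figure D2:**
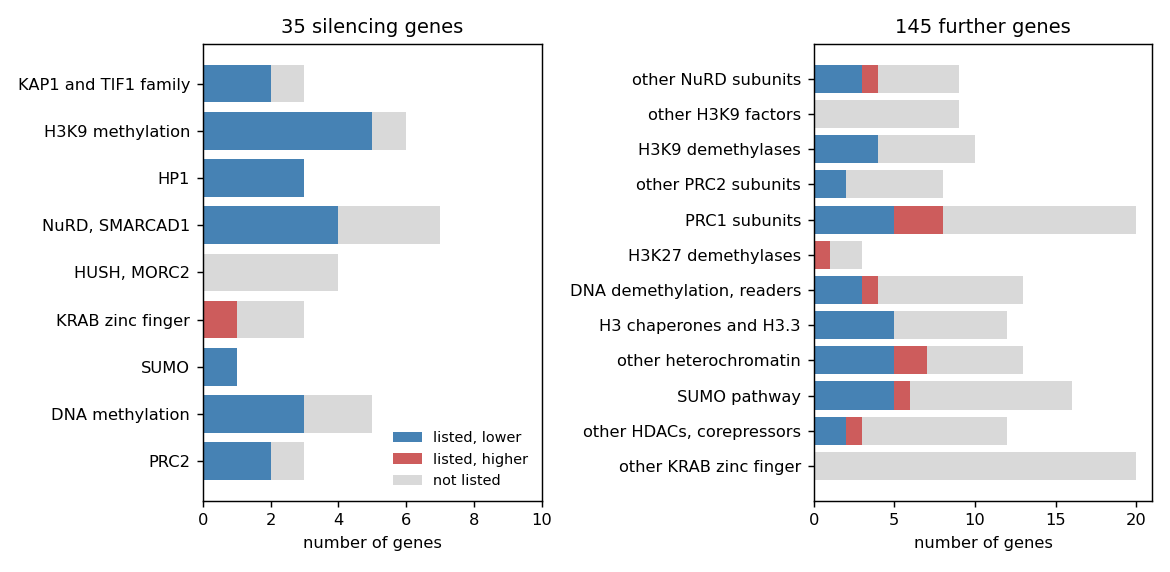
Number of genes listed as lower, listed as higher and not listed in the authors' deposited table, for the 35 silencing genes by complex (left) and for 145 further genes of the same pathways (right). HP1 is lower in all 3 genes and HUSH with MORC2 has none of 4 listed, while PRC1 holds 5 lower and 3 higher genes. Of the 12905 genes tested, 13.7% were lower, 12.6% were higher and 9516 genes were not listed.

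Of 5 DNA methylation genes, 3 were lower and 2 were not listed, against 13.7% lower over all genes tested. Dnmt1, the maintenance methyltransferase, was at -0.31 (SE 0.05, DESeq2 adjusted p = 7.80e-08) in the authors' deposited table. Uhrf1, which leads DNMT1 to hemimethylated DNA, was at -0.28 (SE 0.06, DESeq2 adjusted p = 2.50e-05) in the authors' deposited table. They stood at 80.9% and 82.4% of the control level, with overlapping intervals. Uhrf1 shares 24.2% of its 31-base words with other genes, mostly the processed pseudogene Gm5648. The de novo enzyme gene Dnmt3a was at -0.23 (SE 0.05, DESeq2 adjusted p = 1.82e-04) in the authors' deposited table, and its interval overlaps that of Dnmt1. Dnmt3b, the de novo enzyme of early development, and Mbd1, a reader of methylated DNA, were not listed.

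Of 13 further genes of DNA demethylation and methyl-DNA reading, 3 were lower (23.1%), 1 was higher (7.69%) and 9 were not listed, against 13.7% lower and 12.6% higher over all genes tested. Tet1, which oxidises methylcytosine, was at -0.61 (SE 0.17, DESeq2 adjusted p = 0.00211), and the glycosylase gene Tdg, which removes the oxidised bases, at -0.19 (SE 0.06), in the authors' deposited table. Uhrf2, a paralog of Uhrf1, was at -0.39 (SE 0.06, DESeq2 adjusted p = 3.10e-08), and the methyl-DNA-binding factor gene Zbtb4 was higher at 0.49 (SE 0.14), in the authors' deposited table. Tet2 and Tet3 were not listed. As for H3K9, genes that add the mark and genes that remove it were both among the lower ones.

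After Trim28, the member with the smallest p belonged to PRC2, of whose 3 genes 2 were lower, against 13.7% of all genes tested. Ezh2, the catalytic subunit that methylates H3K27 and that is high in dividing progenitors, was at -0.47 (SE 0.06, DESeq2 adjusted p = 2.60e-15) at a mean normalized count of 7967 in the authors' deposited table. It stood at 72.2% of the control level (95% interval 67.0 to 77.8) and was 74th of 3389 by p. Apart from Trim28, it was the only member whose interval lay wholly beyond 1.2-fold. Suz12, the scaffold subunit, was at -0.23 (SE 0.05, DESeq2 adjusted p = 7.14e-05) in the authors' deposited table, and its interval of -0.33 to -0.13 does not overlap the -0.58 to -0.36 of Ezh2. These intervals treat the genes separately, and the covariance between genes measured in the same libraries is unknown. Eed, the subunit that reads the mark, was not listed. The fall of Ezh2 was within the range of the proliferation markers given above, as were those of Chd3, Ehmt1, Dnmt1, Uhrf1 and Suv39h2. The part of proliferation in the fall of Ezh2 was not tested.

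Over all genes tested, 13.7% were lower and 12.6% higher. Of 8 further PRC2 subunits, Aebp2 at -0.24 (SE 0.05) and Mtf2 at -0.20 (SE 0.07) were lower by the authors' deposited table, none was higher, and Ezh1, the paralog of Ezh2 in non-dividing cells, was among the 6 not listed. Of 20 PRC1 genes, 5 were lower (25%), 3 higher (15.0%) and 12 not listed, shares of which the higher one is near that of all genes. The lower ones were Rybp at -0.43 (SE 0.09, DESeq2 adjusted p = 6.96e-05), Kdm2b at -0.23, Pcgf3 at -0.21, Pcgf5 at -0.20 and Rnf2, the ubiquitin ligase, at -0.25 in the authors' deposited table. Rybp, Kdm2b, Pcgf3 and Pcgf5 encode parts of the variant PRC1 complexes that lack a CBX subunit, as do Pcgf1, Pcgf6 and Yaf2, which were not listed. The higher ones included Cbx6 at 0.26 (SE 0.05, DESeq2 adjusted p = 5.72e-06) and Cbx7 at 0.59 (SE 0.23), in the authors' deposited table. Their products are subunits of canonical PRC1, for which Bmi1, Pcgf2, Phc1, Phc2 and Phc3, none of them listed, also encode parts. Of the H3K27 demethylase genes, Kdm6b was higher at 0.19 (SE 0.07), by the authors' deposited table, and Kdm6a and Uty were not listed.

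Of 12 genes for histone H3 chaperones and the variant H3.3, 5 were lower, 7 were not listed and none was higher, against 13.7% lower and 12.6% higher over all genes tested. Chaf1b at -0.45 (SE 0.08, DESeq2 adjusted p = 3.29e-07) and Chaf1a at -0.37 (SE 0.06, DESeq2 adjusted p = 1.09e-08), which encode subunits of CAF-1, the chaperone that deposits new H3 at replication sites, were both lower in the authors' deposited table. Asf1b, a chaperone of dividing cells, was at -0.36, the H3.3 gene H3f3b at -0.25 and Ubn2 at -0.14 in the authors' deposited table. H3f3b and Ubn2 belong to the deposition of H3.3 outside replication, as do Atrx, Daxx and Hira, which were not listed, and the paralog of Asf1b, Asf1a, was not listed either. Of 13 other heterochromatin factors, 5 were lower (38.5%) and 2 higher (15.4%), the higher share being near that of all genes. Smchd1, which keeps the inactive X chromosome silent, was at -0.38 (SE 0.05, DESeq2 adjusted p = 7.51e-14) in the authors' deposited table. Lbr, which tethers HP1-bound chromatin at the nuclear envelope, was at -0.37, the remodeller gene Hells at -0.30 with its partner Cdca7 at -0.37, and Pogz, whose product binds HP1, at -0.22 in the authors' deposited table. Besides Trim66, the higher gene was Kmt5a, the methyltransferase for lysine 20 of histone H4, at 0.35 (SE 0.06, DESeq2 adjusted p = 5.04e-08) in the authors' deposited table. Over all 145 further genes, 34 were lower (23.4%) and 10 higher (6.90%), against 13.7% and 12.6% of all genes tested, with a median of -0.23 among the 44 listed.

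**Figure D3:**
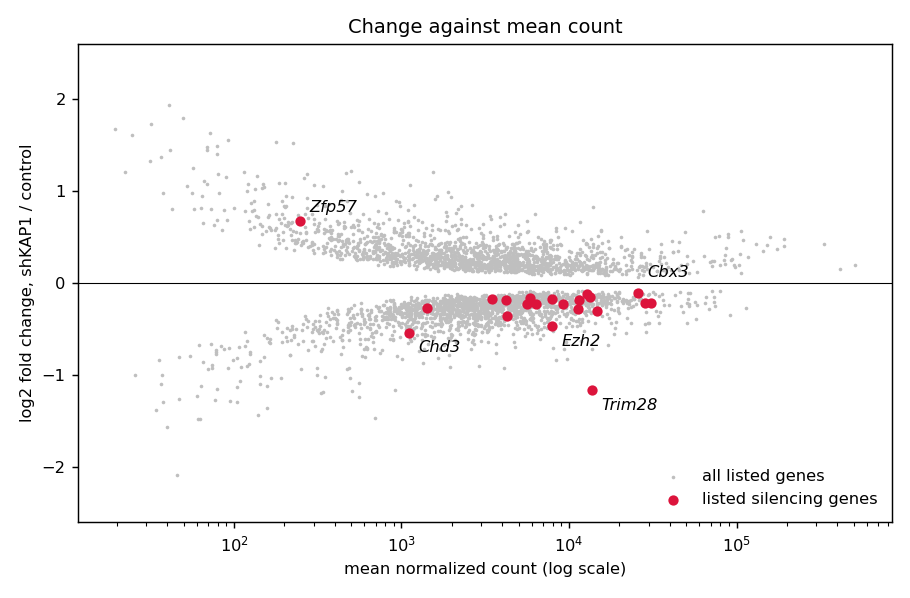
Log2 fold change of shKAP1 over control against mean normalized count (log axis) for the genes of the authors' deposited table, in grey, and the 21 listed silencing genes, in red; 5 listed genes beyond 2.5 on the log2 scale are not drawn. The band around 0 is empty because only genes past the threshold are listed, and Zfp57 is the leftmost of the red points.

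The threshold and base composition bear on how these counts read. The smallest Wald statistic listed was 2.48 in size, so at the SEs of the listed members, 0.036 to 0.25, the smallest change that could be listed ran from 0.090 to 0.63 on the log2 scale. Across the table, GC-poor transcripts were more often lower: 74.9% of listed genes were lower in the quintile with the least GC, against 29.9% in the highest. The 20 lower members fell in every quintile, with 7, 1, 4, 5 and 3 from lowest to highest GC. In the highest quintile, Ehmt2, Mbd3 and Chd3 were the 3 members listed, and all were lower. The part of base composition in the members' direction was not tested.

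**Figure D4:**
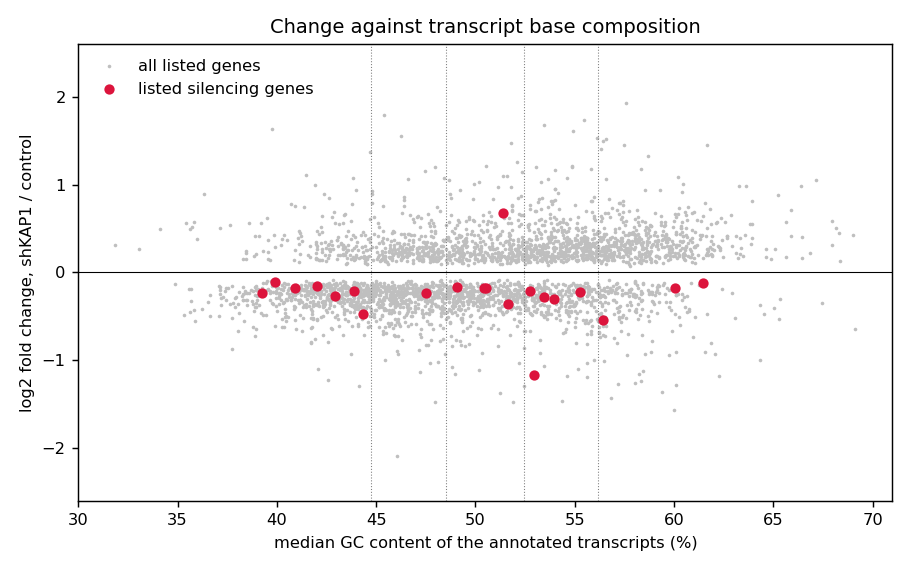
Log2 fold change of shKAP1 over control against the median GC content of a gene's annotated transcripts, for listed genes (grey) and the 21 listed silencing genes (red); dotted lines separate quintiles of the listed genes by GC, and 5 genes beyond 2.5 on the log2 scale are not drawn. Lower members number 7, 1, 4, 5 and 3 from the lowest to the highest quintile. Of the listed genes, 74.9% are lower in the lowest quintile and 29.9% in the highest. The part of base composition was not tested.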

How the data were processed

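RNA was sequenced from 7 samples, 4 shKAP1 and 3 control, grouped by library name, per the labels. Trim Galore 0.4.4, kallisto, DESeq2 and GRCm38 are named in the submitters' processing notes, and the annotation and model in no source used here. The authors' deposited table holds, per the file headers, the mean normalized count (a signal averaged over samples), the log2 fold change and its SE, a signed fold (a score) repeating it, the Wald statistic (also a score), and raw and adjusted p-values. Nothing could be refitted. The number of genes with an adjusted p, 12905, was recovered from adjusted p times rank divided by p, which gave it within 0.01 in 85.2% of lines. The step was tested on simulated p-values.

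Identifiers were matched without version to GENCODE M21 (3388 of 3389), and Chd3 was the only listed member whose version differed. Of the 145 further genes, 144 were matched, and Ezhip was counted as not listed. Members, complexes and further lists were chosen with earlier results of these data known. Every listed member is named, and a few genes of the further and marker lists are counted but not reported here by name. Of each further list the rule names the 4 genes of smallest adjusted p, or all if 5 or fewer are listed; Rnf2, Pcgf5, Cbx7, Hells, Pogz, Trim66, Senp2, Pias2 and the neighbouring genes were added after their values were seen. Shared sequence is the share of a gene's distinct 31-base words, over all its GENCODE transcripts, found on the same strand of any other gene's transcripts, and was computed for the 35 members only. Python 3.11.15, pandas 2.3.3 and numpy 2.4.6 were used. Alternatives were stricter calls, a minimum count of 100 and identifiers matched with version.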

Additional observations from a re-analysis of the deposited data

How the results depend on the processing

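The 20 lower members became 6 at the Bonferroni limit, 2 with the 95% interval beyond 1.2-fold and 1 at 2-fold or more, by construction fewer, and the 1 higher member, Zfp57, became 0 under each of these and at an adjusted p under 0.01, in each case on the authors' DESeq2 p or fold. The 34 lower further genes became 13, 5 and 0 under the same 3 calls, and the 10 higher ones 2, 0 and 0, and 5 at an adjusted p under 0.01. The members past the Bonferroni limit were Trim28, Ezh2, Dnmt1, Chd4, Ehmt1 and Uhrf1. Suv39h1, Suv39h2, Cbx3, Chd3, Mbd3 and Zfp57 did not pass an adjusted p of 0.01. A minimum mean count of 100 and identifiers matched with version changed no count by more than 1 gene, Chd3. Other tools, other normalizations and leaving out single replicates were not run, since they need the values of single libraries. No paired analysis was possible because those values are lacking here too. Depth per library is unknown, so no detection limit was computed for the 14 members not listed.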
